A study of Caenorhabditis elegans with 2 samples.

Results

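The histone genes of Caenorhabditis elegans that carry a his- name were examined for occupancy by PAT-9 in late embryos. They were chosen as the protein-coding genes whose symbol starts with his-, which gave 72 of 19973 protein-coding genes of the Ensembl annotation (release 115, WBcel235, the same assembly as ce11). PAT-9 is a zinc finger transcription factor needed for body wall muscle. Chromatin immunoprecipitation and sequencing with an antibody against GFP was done on sonicated chromatin of whole late embryos of both sexes, collected by egg bleaching, of strain RW12085 with an age label of 3 hours. The data form 1 group of 2 biological replicates, without a second condition, so no test between conditions was possible. The strain carries a CRISPR insertion at pat-9 that its label gives as mNG with 3xFlag, whereas the description gives an eGFP fusion and a note gives GFP-FLAG at the C terminus, so the fields conflict. A control library was named in the labels and is not analysed here.

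Histones wrap the DNA of the nucleus: H2A, H2B, H3 and H4 form the core of the nucleosome, and H1 binds the DNA where it enters and leaves the core. Most core histone genes are transcribed while DNA is copied, and their messages end in a stem-loop in place of a poly(A) tail. The variant H3.3 is laid down independently of replication, and its genes usually lack the stem-loop. In worms the core histone genes lie in many small clusters of near-identical copies, mostly as divergent pairs, so that the stretch between 2 coding starts, called the spacer here, serves as the promoter of both genes.

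By RefSeq product names the members included 17 H2A, 16 H2B, 15 H3 and 16 H4 genes. The 1 H1 gene, his-24, has the product name Histone 24. Another 5 were grouped as H3.3 here, of which his-71 and his-72 are named H3.3 and his-69, his-70 and his-74 H3.3-like. The last 2, his-39 and his-73, are named H2A/H2B/H3 domain-containing proteins. They are called fragments here because they code for only 67 and 46 residues. The 15 H3 genes coded for 1 protein of 136 residues and the 16 H4 genes for 1 protein of 103 residues, while the H2A genes gave 3 distinct proteins, the H2B genes 4 and the H3.3 genes 5. In 14 clusters, defined by neighbours at most 10 kb apart, lay 67 members, and 5 stood alone. Of all members 62 formed 31 divergent pairs, namely 16 of H2A with H2B, 14 of H3 with H4, and the pair of his-67, an H4 gene, with his-68, an H2A gene. Spacers measured 227 to 368 bp, with a median of 258 bp. A perfect stem-loop with a 6-base stem that starts with GG and a 4-base loop, within 200 bp after the coding end, was found for 56 members and for 85 of all protein-coding genes (0.426%), these 56 included. All 15 H3 genes, 15 of 16 H4 genes, 15 of 16 H2B genes and 11 of 17 H2A genes had it, and none of the H1, H3.3 and fragment genes did.

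Sequences are shown for the promoters on which the account below turns, from the RefSeq copy of the WBcel235 genome. Windows around a summit are 151 bp long, and capitals mark TATAAA, the core of the TATA box, and GGGACAC, each on either strand. The his-31/his-32 window lies in the strongest histone region on chromosome IV, and the his-37 window in the strongest one on chromosome V. The spacers of his-2/his-1 and of his-4/his-3 are the H3/H4 and H2A/H2B spacers of a 4-gene cluster in which both held a region. The spacer of his-14/his-13 occurs letter for letter in 3 copies, and no region was listed at any of them.
his-31/his-32, bases around the summit, chrIV:8334181-8334331, plus strand: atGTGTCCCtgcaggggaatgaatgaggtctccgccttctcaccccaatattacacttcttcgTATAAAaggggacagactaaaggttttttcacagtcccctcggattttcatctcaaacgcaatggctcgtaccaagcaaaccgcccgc
his-37, bases around the summit, chrV:9546959-9547109, plus strand: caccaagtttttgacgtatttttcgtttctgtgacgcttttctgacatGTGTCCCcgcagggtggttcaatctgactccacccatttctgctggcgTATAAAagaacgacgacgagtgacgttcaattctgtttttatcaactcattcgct
his-2/his-1, whole spacer, chrV:16042284-16042519, plus strand: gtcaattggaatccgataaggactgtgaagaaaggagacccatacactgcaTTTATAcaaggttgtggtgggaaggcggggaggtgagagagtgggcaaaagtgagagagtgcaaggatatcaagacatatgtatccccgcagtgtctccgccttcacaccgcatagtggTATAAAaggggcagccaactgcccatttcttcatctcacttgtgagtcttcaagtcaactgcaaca
his-4/his-3, whole spacer, chrV:16040516-16040807, plus strand: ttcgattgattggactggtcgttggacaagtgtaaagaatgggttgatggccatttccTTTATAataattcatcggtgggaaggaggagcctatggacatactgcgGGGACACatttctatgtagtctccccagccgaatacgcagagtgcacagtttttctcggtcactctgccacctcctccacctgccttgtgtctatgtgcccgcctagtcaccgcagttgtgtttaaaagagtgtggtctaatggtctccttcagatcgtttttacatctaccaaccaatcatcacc
his-14/his-13, whole spacer without a region, chrII:13819938-13820209, plus strand: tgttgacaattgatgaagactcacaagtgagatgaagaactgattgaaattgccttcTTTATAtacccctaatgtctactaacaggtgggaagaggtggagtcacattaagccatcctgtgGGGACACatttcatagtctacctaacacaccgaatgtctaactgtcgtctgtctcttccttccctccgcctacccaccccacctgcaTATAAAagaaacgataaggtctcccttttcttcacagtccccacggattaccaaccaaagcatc

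A region was counted for a gene when its summit lay in the promoter window, which reaches 1000 bp upstream and 500 bp downstream from the start of any of its transcripts. The authors deposited a list of 30000 regions for each replicate and for the pooled reads, all before any threshold, and a set of 735 optimal peaks from their reproducibility filter. These were the 735 strongest pooled regions. The signal of a region is the authors' own value, and it was used to rank regions within a list. The pooled signal ran from 23.9 to 991 with a median of 34.1, and the lowest optimal peak had 101.3. A looser limit was set at 2 times the number of optimal peaks, where the pooled signal was 76.1. The lists do not give the read depth.

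Few histone promoters held strong PAT-9 regions, as was also so for all genes. Most of the copies in the large arrays held none, but their windows are mostly repeated sequence. There a missing region and unplaced reads cannot be told apart, as given below. An optimal peak lay in the promoter window of 4 of the 72 members (5.56%), against 2.57% of all protein-coding genes, but these 4 genes shared 2 peaks, those of his-67/his-68 and his-31/his-32. A pooled region within the looser limit lay at 7 members (9.72%), against 4.9% of all genes, and there were 5 such regions. A pooled region of any strength lay at 29 members (40.3%), against 43.4% of all genes, and these genes shared 32 distinct regions. In replicate 1 the count was 28 (43.9% of all genes had a region) and in replicate 2 it was 32 (44.2% of all genes). The 735 strongest regions of replicate 1 reached 5 members, against 2.29% of all genes, and those of replicate 2 reached 4 members, against 2.51%. With these windows the shares of members with a region of any strength were near those of all genes. Because neighbours share regions, counts of genes run ahead of counts of regions, and they were not tested.

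The 29 members with a pooled region had a median best rank of 5837, at percentile 80.5 of the list, while the 8678 protein-coding genes with a pooled region had a median rank of 10406.5, at percentile 65.3. In replicate 1 the medians were 9710 for 28 members and 11347 for all genes with a region, and in replicate 2 they were 7307.5 for 32 members and 10865. By class, H4 had a region at 8 of 16 genes with a median rank of 4193.5, and H3 at 7 of 15 with 8617. H2A had one at 5 of 17 with 5764, and H2B at 5 of 16 with 7887, against 43.4% of all protein-coding genes. By the measure used below, windows were under 50% single-copy at 8 H4, 8 H3, 12 H2A and 12 H2B genes. A difference between classes was not tested. H2B was the core class with no region within the looser limit, its best being that of his-41, which it shares with his-35, at rank 5582. The H1 gene, 2 of the 5 genes grouped as H3.3 (both named H3.3) and 1 of 2 fragments had a region.

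**Figure D1:**
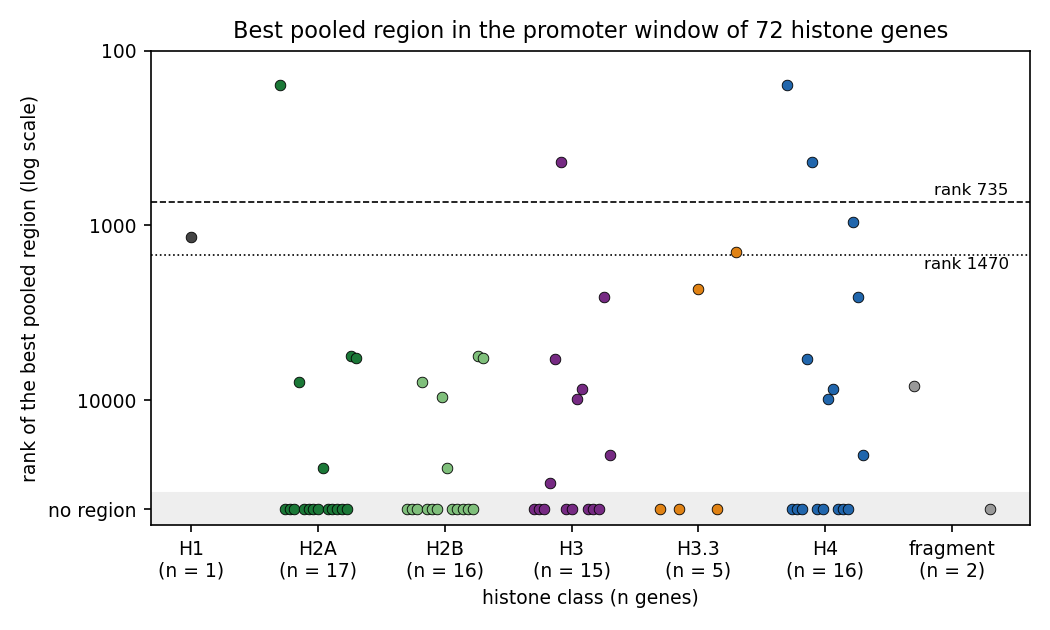
Rank of the best pooled region in the promoter window of each histone gene, by class, on a log axis with strong regions at the top; each point is 1 gene, and genes of a divergent pair can share a region. The dashed line marks the last optimal peak (rank 735), the dotted line the looser limit at 2 times that rank, and the grey band holds the 43 genes without a pooled region. Only the his-67/his-68 and his-31/his-32 genes lie above the dashed line.

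The strongest histone site was the promoter that his-67 and his-68 share on chromosome I (9988895 to 9989064). It had a pooled signal of 213 and rank 157. Its signal was 94.7 in replicate 1, at rank 117, and 118 in replicate 2, at rank 219. Both replicates placed it well inside their 735 strongest regions, with summits within 1 bp of the pooled one. The summit lay 140 bp upstream of his-68 and 229 bp upstream of his-67, inside their 368 bp spacer, the longest of the 31. The summit is also inside the promoter window of alg-5, a gene of the Argonaute family. The region's −log10 q of 2.91 was the highest value of that column in the pooled list at a histone gene. This was the 1 divergent pair that joins H2A with H4, and its spacer was at most 66.0% identical to any other histone spacer.

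The next was the promoter of his-31, an H4 gene, and his-32, an H3 gene, at positions 8334041 to 8334470 of chromosome IV. Its pooled signal was 127 at rank 431, with 59.1 at rank 328 in replicate 1 and 72.9 at rank 580 in replicate 2. The 3 summits lay within 5 bp of each other, 49 bp upstream of his-32 and 273 bp upstream of his-31 for the pooled one, beside the TATA box of his-32 in the sequence above. A weaker pooled region of the same pair had its summit 207 bp further on, with a signal of 27.4 at rank 23801. On either side of this pair in its 6-gene cluster are the H2A/H2B pairs his-29/his-30 and his-33/his-34. These flanking pairs had no region in any list, and their 253 bp spacers were identical to each other, while the his-31/his-32 spacer was at most 59.8% identical to any other.

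On chromosome V the H4 gene his-37, which has no stem-loop by the search above and no divergent partner, had the highest-ranked region just outside the optimal list among the members. Its signal was 90.1 at rank 956 in the pooled list. It was 27.4 at rank 4334 in replicate 1 and 62.5 at rank 830 in replicate 2, so replicate 2 ranked it far higher. The summit lay 71 bp upstream of the start, between a GGGACAC and a TATAAA that are each 24 bp from it. The neighbours his-35 (H2A) and his-41 (H2B) form a divergent pair that also lacks the stem-loop. Their spacer region had a pooled signal of 48.6 at rank 5582, the strongest pooled region of any H2B gene. It had 25.6 at rank 5575 in replicate 1 and 28.6 at rank 7802 in replicate 2. In replicate 2 the H2B genes his-15 (rank 1022) and his-62 (rank 6813) had stronger regions in their windows. The his-15 one had its summit 986 bp upstream, outside the spacer and past the end of his-16. An optimal peak next to this cluster fell outside the windows: its summit was 1036 bp upstream of his-41, beyond the end of his-35, and 274 bp upstream of mdf-1, the nearest coding start. That peak had a signal of 119 at pooled rank 503, and ranks 347 and 782 in replicates 1 and 2. In all, 11 pooled regions within 1200 bp of a histone cluster or single gene lay in no histone window, and this was the 1 optimal peak among them. Those named here were chosen after their values were seen.

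The linker histone gene his-24 on the X chromosome (region 14490009 to 14490438) had a pooled signal of 82.8 at rank 1165. Replicate 1 gave 30.4 at rank 2894 and replicate 2 gave 55.7 at rank 1103. Its summit lay 130 bp downstream of the annotated start, inside the coding sequence, and not in the upstream sequence. A second his-24 region, of signal 28.4, ranked 22166. Outside its window, past the end of the gene, a region of signal 73.4 ranked 1604.

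The 5 genes grouped as H3.3 divided into 2 with pooled regions, his-71 and his-72, both named H3.3, and 3 without, all named H3.3-like. His-71, on X (region 7982398 to 7982827), had a pooled signal of 77.1 at rank 1423, with 46.8 at rank 606 in replicate 1 and 42.2 at rank 2369 in replicate 2. It was the member, outside the optimal peaks, that entered the 735 strongest regions of a replicate, here replicate 1. Its summit was 543 bp upstream of the start, farther than those of the core histone sites above, and a second pooled region followed 744 bp upstream with a signal of 51.2 at rank 4707. His-72, on chromosome III, had 4 pooled regions in its windows, the strongest (12367517 to 12367946) with a signal of 64.7 at rank 2306. The region of replicate 1 that overlaps it had 21.7 at rank 9678, and that of replicate 2 had 41.6 at rank 2476. That summit was in the his-72 coding sequence, but the nearest coding start was that of Y75B8A.33, 359 bp away, and not a start of his-72. The next his-72 region, 80 bp downstream of a start, had a signal of 47.2 at rank 6110. His-69 and his-70 had no region in any of the lists, although 99.3% and 91.7% of their windows are single-copy by the measure used below. His-74 had none in the pooled list and in replicate 1, and in replicate 2 a region of signal 24.7 at rank 11820, 993 bp upstream. Outside its window, a pooled region of signal 70.5 at rank 1780 had its summit beyond the far end of his-74. Another, of signal 50.9 at rank 4812, had its summit at that end. Both summits were within 19 bp of a start of ccch-3.

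Among the other core pairs the strongest was his-1 (H4) with his-2 (H3) on chromosome V (16042198 to 16042627). Its signal was 62.6 at pooled rank 2550. The overlapping region had 21.2 at rank 10360 in replicate 1 and 51.9 at rank 1321 in replicate 2, and the summit of the latter was 307 bp from the pooled one. The pooled summit was 107 bp upstream of his-1 and 130 bp upstream of his-2, near the middle of the 236 bp spacer. An overlapping second region had its summit 200 bp into his-1, with a signal of 59.3 at rank 3037. In the same 4-gene cluster his-3/his-4 (H2A/H2B) had a pooled signal of 48.1 at rank 5764. The overlapping region had 19.5 at rank 13137 in replicate 1 and 21.8 at rank 16098 in replicate 2. Next were his-59/his-60 at rank 5837, his-61/his-62 at 7887, his-5/his-6 at 8617, his-58 at 9538 and his-63/his-64 at 9886, with signals from 40.2 to 48.0. The weakest were his-38/his-40 (29.6, rank 20460), his-65/his-66 (26.9, rank 24568) and his-42 (23.9, rank 29899), close to the end of the list. The his-65/his-66 region overlapped no region of either replicate. The fragment his-73 was assigned a region of signal 42.8 at rank 8247 whose nearest coding start is that of W09H1.4. It had no overlap in replicate 1 and a signal of 35.6 at rank 4005 in replicate 2. The −log10 q of the first 8 regions by rank lay between 1.23 and 2.91, and that of the other 24 between 0.0692 and 0.784.

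**Figure D2:**
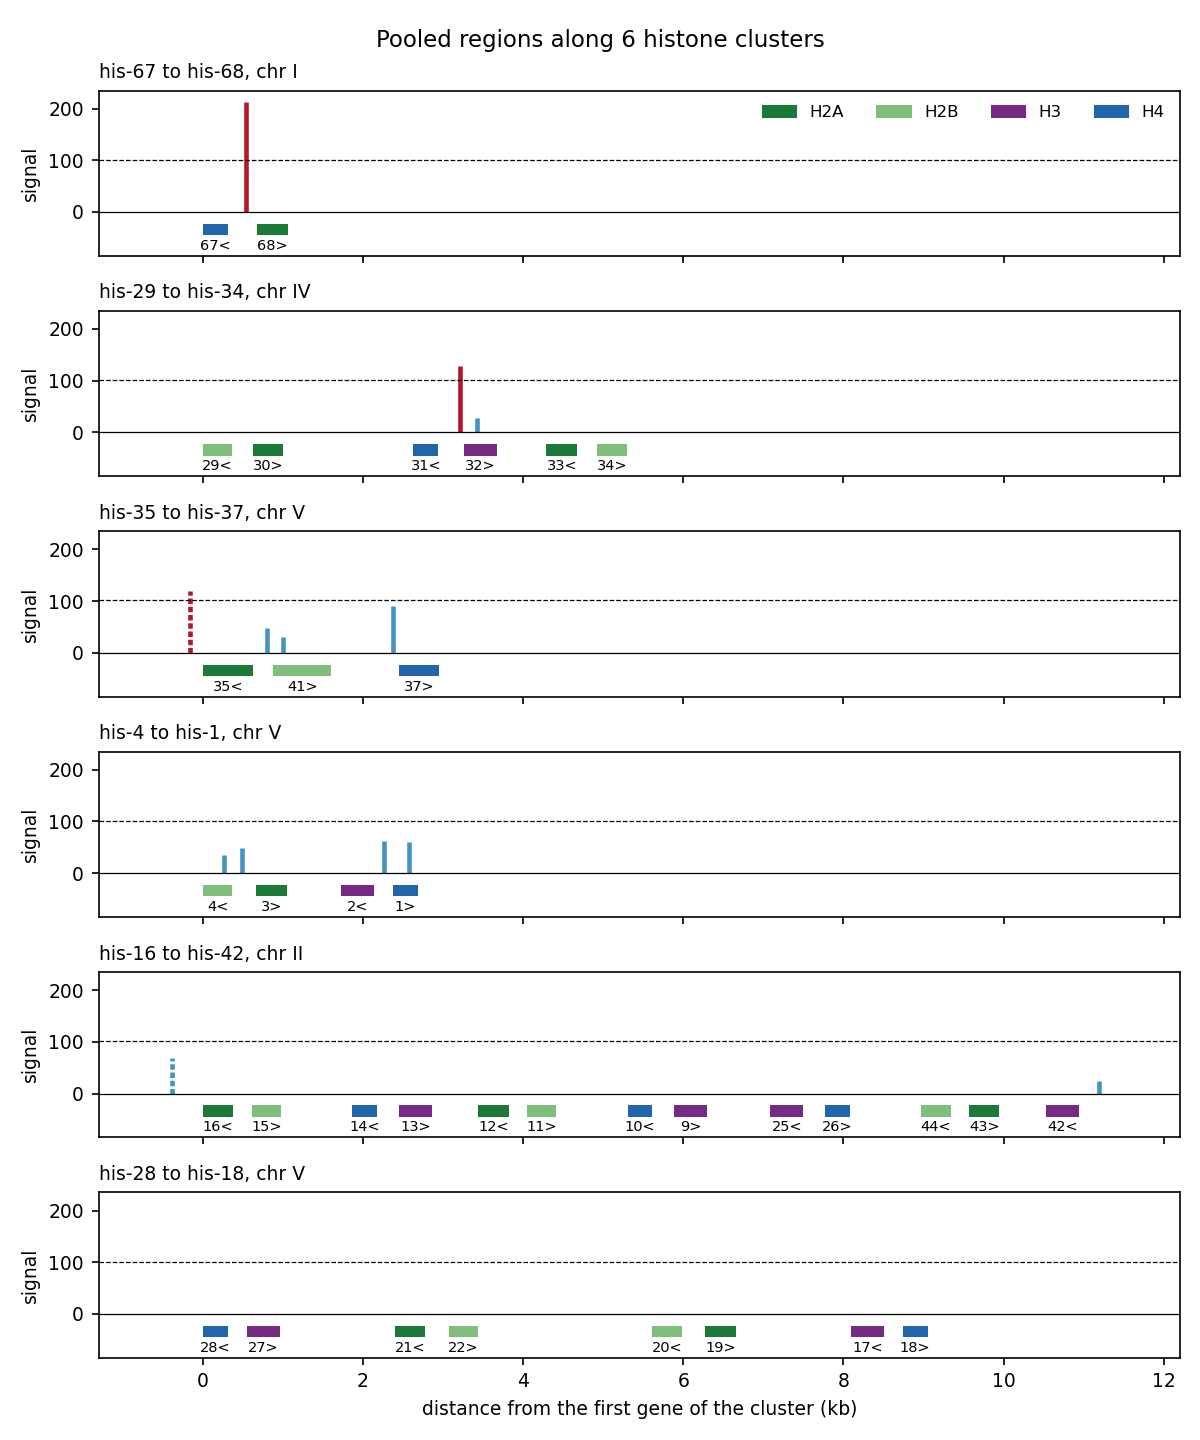
Pooled regions along 6 histone clusters, with distance from the first gene of each cluster in kb on the horizontal axis and the authors' signal at each summit on the vertical axis. Coloured boxes are genes (number of the his- gene and direction), red sticks optimal peaks, blue sticks other pooled regions, dotted sticks regions outside the promoter windows, and the dashed line the lowest optimal signal (101.3). The his-67/his-68 stick reaches 213 and his-31/his-32 127, while the 8-gene his-28 to his-18 cluster has no stick.

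Where the members had no region, their promoters were mostly repeated sequence. For each window the share of 50-mers found at a single place in the genome, on either strand, was computed and is called the single-copy share. It had a median of 3.40% in the 43 members without a pooled region and 91.1% in the 29 members with one. Of the 43, 37 had a share under 50%, while 3 of the 29 did, namely his-58, his-65 and his-66. The 3 exceptions had their summits in the single-copy ends of their windows, where the regions themselves were 95.1% and 65.3% single-copy. All 32 histone regions were at least 53.0% single-copy. Of all pooled regions 187 of 30000 (0.623%) were under 50%, while 6.49% of all 50-mers of the genome occur at more than 1 place.

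The same was seen over all protein-coding genes, the members included. Of 19973 protein-coding genes 434 (2.17%) had a single-copy share under 50%, 40 of them members, and a pooled region lay at 14 of the 434 (3.23%), against 8664 of the other 19539 (44.3%). Among the 32 members at 50% or more, 26 had a pooled region (81.25%), and 4 had an optimal peak, against 510 of the 19539 genes (2.61%). The 4 shared 2 peaks, and many of the 26 shared a region with the other gene of their pair. The 6 without one were his-69, his-70 and his-74 (H3.3-like), his-39 (a fragment) and the pair his-7/his-8. How reads that map to several places were treated is not given in the sources used here, and the part of repeated sequence in the missing regions was not tested. For the 40 members under 50%, a copy without a region and a copy whose reads were not placed cannot be told apart here.

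**Figure D3:**
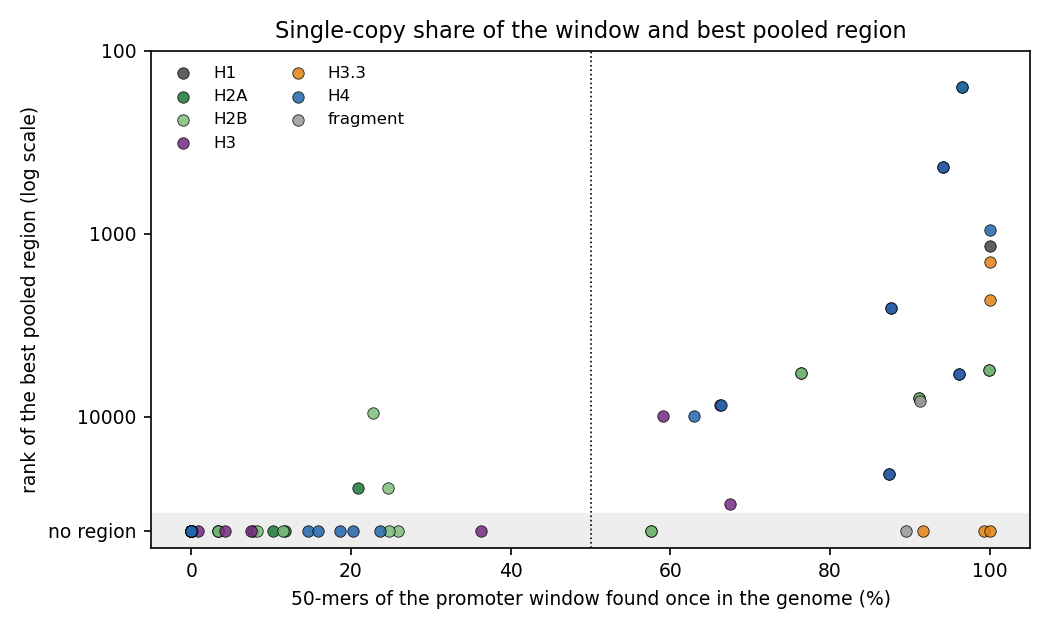
Single-copy share of the promoter window (percent of its 50-mers found at a single place in the genome) against the rank of the best pooled region. The rank is on a log axis with strong regions at the top. Each point is 1 of 72 histone genes, coloured by class. Points overlap for genes of a pair, and for genes of several pairs at 0% without a region. The grey band holds the 43 genes without a pooled region, 37 of them left of the dotted line at 50%.

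The 13-gene and 8-gene arrays held almost no regions, and smaller clusters varied. The 13-gene cluster on chromosome II, his-16 to his-42, spans 10938 bp and had 1 pooled region in its windows, the one at rank 29899 beside his-42 at its end. The 6-gene cluster his-50 to his-53 and the 8-gene cluster his-28 to his-18 on chromosome V, and the 4-gene cluster his-47 to his-45 on chromosome IV, had no pooled region in their windows. The other 6-gene cluster, his-29 to his-34, held 2 regions, both of the his-31/his-32 pair. The remaining 4-gene clusters held 5 (his-59 to his-62), 4 (his-1 to his-4), 3 (his-63 to his-66) and 1 (his-55 to his-58). On chromosome V 9 of 27 members had a pooled region (32.6% of all protein-coding genes of that chromosome), on chromosome IV 11 of 22 (41.6%) and on chromosome II 2 of 14 (44.9%). The small numbers elsewhere were 2 of 2 on chromosome I (54.4%), 1 of 3 on chromosome III (54.2%) and 4 of 4 on X (41.6%). His-17 and his-18, at the end of the 8-gene cluster, had a region in each replicate, with signals of 17.4 at rank 17559 and 27.4 at rank 8866, but not in the pooled list. His-15, at the other end of the chromosome II cluster, had a region of signal 57.5 at rank 1022 in replicate 2, 986 bp upstream. The pooled region there ranked 1940, and its summit, 15 bp farther out, was just beyond the window. That summit lay past the end of his-16, 773 bp downstream of the his-16 start, and the overlapping region of replicate 1 ranked 12013.

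The spacers were also largely copies of each other. In 7 groups, 23 of the 31 spacers were at least 90% identical to another member of the group. The 272 bp spacer of his-14/his-13 was identical to those of his-10/his-9 and his-25/his-26, and the 227 bp spacer of his-16/his-15 to those of his-12/his-11 and his-44/his-43. The 292 bp spacer of his-51/his-52 was shared without a difference, in either orientation, by his-54/his-53, his-21/his-22 and his-20/his-19. A pooled summit lay in 0 of the 20 spacers with a single-copy share under 50% and in 9 of the 11 others, the exceptions being his-7/his-8 and his-38/his-40. By class it lay in 3 of 16 H2A/H2B spacers and 5 of 14 H3/H4 spacers, or 3 of 4 and 5 of 6 where the spacer was mostly single-copy. Other divergent coding pairs with spacers in the same range of lengths numbered 296, of which 289 were mostly single-copy. Of these 289, 112 (38.8%) had a pooled summit in the spacer, and 21 (7.27%) had one among the 735 strongest, while of the 7 others 0 had one. Among the 9 histone spacers with a summit the best rank was 157 and the median 5764, beside a median of 5001.5 for the 112. Summits lay at no fixed place, from 0.392 to 0.925 of the spacer's length from its left end.

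Base composition at the histone regions, and short sequences in the promoters of all members, were described beside those of all promoters. Within 50 bp on either side of the summit the median GC content was 48.0% (29.7 to 59.4%) over the 32 regions, and 40.6% over 11128 promoter regions of all protein-coding genes. Of the 32, 7 were below that 40.6% and 25 were not, and no test was made. Of the 32 summits 9 lay in a spacer of a pair and 11 in a histone coding sequence, and for 30 a histone gene had the nearest coding start. In the 300 bp from 250 bp before to 50 bp after each start, on both strands, TATAAA was in 47 of 72 members (65.3%) and in 37.9% of all promoters. GAGAGA was in 45.8% of members and 21.8% of all, ACGCGC in 4.17% and 5.92%, and GTTCGA, part of the tRNA promoter, in 4.17% and 9.85%. CGCCGC was in 0 members and 5.12% of all. Pairs share a spacer and many spacers are copies, so the members are not separate instances. Within 50 bp on either side of the 32 summits, TATAAA was in 7, GAGAGA in 4, GTTCGA in 3, ACGCGC in 2 and CGCCGC in 1.

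GGGACAC was added after the spacers had been read. It lay in 51 of 72 member promoters (70.8%) and 301 of 19973 in all (1.51%), these 51 included, and in 24 of 31 spacers. Since many spacers are copies, these are not separate instances. Of the 9 spacers with a pooled summit 6 (66.7%) held it, and of the 22 without one 18 (81.8%) did, all of these under 50% single-copy. Within 50 bp on either side of the summit it was found in 4 of the 32 regions. The pooled summit was 4 bp from the nearest match at his-67/his-68, 5 bp at his-3/his-4 and 32 bp at his-59/his-60. It was 52 bp away at his-61/his-62, 70 bp at his-31/his-32 and 81 bp at his-5/his-6. Both replicates had summits within 5 bp of the pooled one only at his-67/his-68 and his-31/his-32. Replicate 2 matched the pooled summit at his-3/his-4 and his-59/his-60. There the strongest overlapping summits of replicate 1 lay 95 bp downstream of the his-4 start and 224 bp downstream of the his-60 start. The his-1/his-2, his-35/his-41 and his-63/his-64 spacers had a summit without a match. The repeated spacer of his-14/his-13 shown above has the match and no region. A match is a description of the sequence and not a binding site.

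Members with and without the stem-loop were set side by side in windows that are mostly single-copy. Of the members at 50% or more, 20 had the stem-loop, of which 18 had a pooled region with a median rank of 6862, and 3 were within the looser limit. Of the 12 without it, 8 had a region with a median rank of 1864.5, and 4 were within the looser limit, namely his-68, his-37, his-24 and his-71. Of all protein-coding genes, 43.4% had a pooled region and 4.9% one within the looser limit. Both genes of a pair count in these medians, and the best his-72 and his-73 regions have their nearest coding starts at other genes. His-67 and his-68 share 1 region and fall on opposite sides, and no test was made.

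The replicates shared most of the histone regions but ranked many of them differently. Of the 29 regions at histone genes in replicate 1, 23 (79.3%) overlapped a region of replicate 2, against 55.7% of 10970 promoter regions of all genes. Of the 34 in replicate 2, 27 (79.4%) overlapped one of replicate 1, against 53.7% of 11216. With an overlap of at least 50% of both regions, the first count was 17 (58.6%), against 41.3%. Of the 32 pooled regions 26 overlapped a region in both lists, and among these 15 ranked higher in replicate 2 and 11 in replicate 1. Neighbouring pooled regions can overlap the same replicate regions, and over the 20 distinct pairs of ranks the counts were 13 and 7. At the strong end his-67/his-68, his-31/his-32 and his-71 ranked higher in replicate 1, and his-37, his-24, his-72 and his-1/his-2 in replicate 2. A region was listed for 25 members in all 3 unthresholded lists, and for 37 in none of them.

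**Figure D4:**
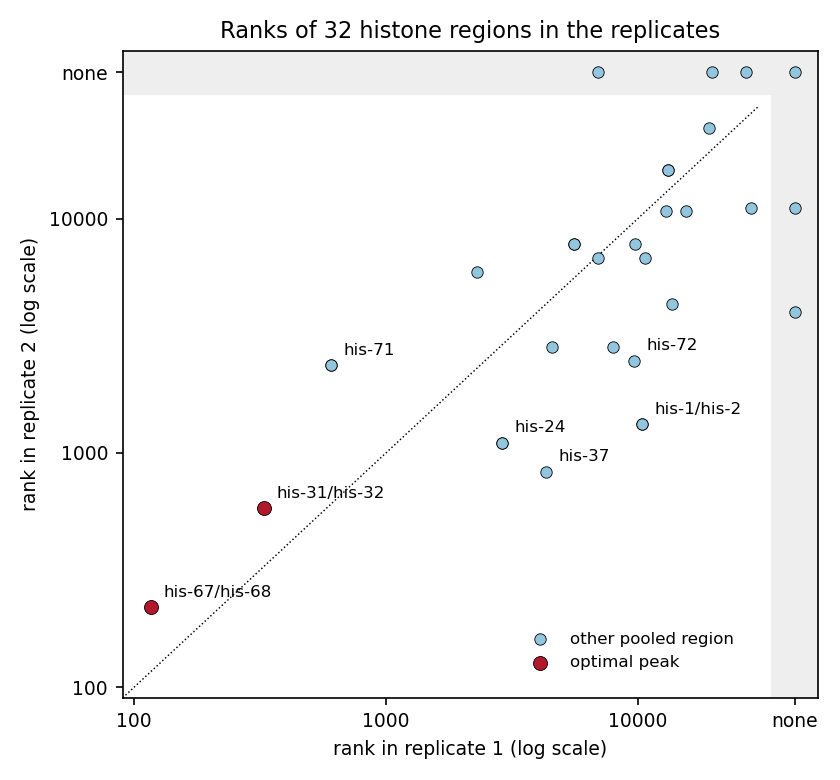
Rank of the overlapping region in replicate 1 (horizontal) and replicate 2 (vertical) for each of the 32 pooled histone regions, on log axes with strong regions at the lower left; grey bands hold regions without an overlap in that list, and the dotted line marks equal ranks. The 2 optimal peaks (red) are low in both, at ranks 117 and 219 for his-67/his-68 and 328 and 580 for his-31/his-32, while his-37 and his-1/his-2 lie far below the line.

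Other histone genes, and genes that handle or accompany histones, were read in the same way from lists of known members. Of 11 genes for other H1 proteins, H2A.Z (htz-1) and centromeric H3, 7 had a pooled region and 0 an optimal peak. The H1 gene hil-3 was the 1 within the looser limit, with a signal of 98.8 at rank 771 and rank 3281 in replicate 1 and 538 in replicate 2. Of 14 genes for histone mRNA processing, chaperones and chromatin assembly, 12 had a region and 3 an optimal peak. They were lin-53, a histone-binding subunit (121, rank 485, replicates 523 and 806), unc-85, an Asf1 chaperone (121, rank 487, replicates 487 and 640), and chaf-2, of the CAF-1 assembly complex (115, rank 552, replicates 1235 and 323). The lin-53 summit is also in the window of nra-2, and that of chaf-2 in the window of Y71G12B.30. The stem-loop binding protein gene cdl-1 had a region at rank 5896, which is also in the window of ect-2. Of 16 DNA replication genes 12 had a region and 1 an optimal peak, rnr-2, the small subunit of ribonucleotide reductase (111, rank 605, replicates 2819 and 479). The other 2 were within the looser limit, cdc-6 (89.1, rank 984, replicates 1314 and 766) and div-1 (87.4, rank 1035, replicates 1140 and 1384). Their summits are also in the windows of acin-1 and cor-1. The shares of genes with an optimal peak in all genes (2.57%) and with a pooled region (43.4%) given above are the background of these counts, and no list was tested.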

How the data were processed

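Chromatin immunoprecipitation of tagged PAT-9 was sequenced in 2 biological replicates of whole late embryos, which form 1 group by their replicate numbers in the labels. Per the text files the authors deposited beside the lists, regions were called with a control alignment, for each replicate and for the pooled alignments, and the optimal peaks were derived from these lists by a reproducibility filter (IDR), on ce11. For the aligner, caller, versions, IDR threshold and multi-mapping reads, the settings were not given in the sources used here. Signal per region, as the authors deposited it, ranks regions within a list, and ranks from different lists were set side by side without a test. The authors' deposited −log10 q per region and the summit offset (another value, in bp) were used as given. The lists hold no depth, and 2 replicates limit the precision.

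Gene models were those of Ensembl release 115, and sequence, product names and symbols those of the RefSeq copy of the same assembly. In the Ensembl annotation 36 members share a symbol with another member (50 distinct symbols for 72 genes), so members were matched by WormBase gene ID to their RefSeq symbols, which are distinct. For 65 members the annotated start is the coding start, so distances are from the start codon there. Single-copy shares were counted with 50-mers, and with 36-mers and 100-mers as alternatives added after seeing the data. Spacer identity is from global alignment with edlib 1.3.9.post1. Other work used Python 3.11.15, NumPy 2.4.6, pandas 2.3.3 and matplotlib 3.10.9. The assignment of summits to windows and the k-mer count were tested on simulated data.

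Every member could be named. Full values are given for regions among the 3000 strongest, the best of each class, the H1 and H3.3 genes and those on either side of the optimal list, and for listed pathway genes within 2 times the number of optimal peaks. Members and lists were chosen with earlier results of these data known. Alternatives were other windows and assignments, stronger or more peaks, regions away from small RNA genes, each replicate alone and a stricter overlap.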

Additional observations from a re-analysis of the deposited data

How the results depend on the processing

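Members with an optimal peak numbered 4 as reported, where 2.57% of all protein-coding genes had one. They were 2 when a summit could belong only to the gene with the nearest start (1.93% of all genes). With the stronger 50% of optimal peaks they were 2 (1.25% of all genes), and with 2 times as many peaks 7 (4.9%). The distinct optimal peaks numbered 2, with 1 and 5 under the last 2 settings. A window of 2000 bp upstream gave 6 genes (3.48% of all genes) and 3 peaks. Members with any pooled region went from 29 to 19 of 72 under nearest-start assignment, while the share of all genes went from 43.4% to 38.6%. Under that assignment the members were below the share of all genes, but a summit shared by a divergent pair then counts for 1 gene only. The distinct regions under it numbered 30, so the lower count of genes cannot be read as fewer regions at the members. Distinct regions went from 32 to 21 with a window from 500 bp upstream to 250 bp downstream. The median percentile of 80.5 was 67.6 without replicate 2 and 75.6 without replicate 1. Of 55 alternatives 47 stayed within 1.5 times the reported count (for the percentile, within 1 SD of the replicates, 5.66), and 8 did not. The 37 members without a region and under 50% single-copy stayed 37 with 36-mers and with 100-mers. No paired analysis was possible because there is 1 group. The number of replicates, repeated copies and shared regions limit what the lists can show.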
